A study of Mus musculus with 10 samples.

Results

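Eph receptors are receptor tyrosine kinases that bind ephrins, ligands held on the membrane of a neighbouring cell. Binding signals into both cells, and the pairs set adhesion, repulsion and the packing of cells in epithelia. A ephrins are tied to the membrane by a lipid anchor and bind mostly A receptors. B ephrins span the membrane and bind mostly B receptors. In the lens, Epha2 and Efna5 are the best studied members, and cataract is known to follow from loss or mutation of either. The expression of 10 genes of this family with a known place in the eye was followed here in embryonic lenses with and without a conditional deletion of Dicer, the ribonuclease that matures microRNAs. The genes are the receptors Epha2, Epha3, Epha4, Epha5, Ephb2 and Ephb4 and the ephrins Efna1, Efna5, Efnb1 and Efnb2. They were chosen by name, with earlier results of these data known. Of the 10, 9 had a probe set in the annotation used, out of 19938 genes measured in all. Ephb2 had none and was not analysed here.

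Lenses were taken from mouse embryos at E13.5, a stage counted in days of gestation, and the pair from each embryo was pooled into 1 RNA sample for 1 array, with 5 control and 5 DicerCN arrays. DicerCN embryos had the genotype Le-Cre+/-;DicerloxP/loxP, in which a transgene under the P0 promoter of Pax6 makes Cre recombinase in the surface ectoderm that gives rise to the epithelia of lens and cornea. Control embryos were Le-Cre-/-;DicerloxP/loxP, so both groups carried the loxP-flanked Dicer alleles and the titles' word for controls, wild type, refers to the absence of Cre. The labels call the samples independent embryos and give no litter. A level is a log2 signal as deposited, a change is the DicerCN mean minus the control mean on the log2 scale, and a gene passed the test when its adjusted p (limma, Benjamini-Hochberg over all genes) was under 0.05.

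The tissue label held against its markers, since the 15 measured lens fibre markers had a median mean signal at the 99.1th percentile of all genes. Other cells were present as well, and 2 arrays stood apart: control replicate 4 had a striated muscle score of 2.13, where the other 9 arrays lay between −0.70 and −0.40, and DicerCN replicate 5 had the highest neural retina score (1.79) and the lowest lens fibre score (−0.81). A score is the mean over a marker list of log2 signal minus the control mean. Array medians lay between 6.54 and 6.56. Every DicerCN array had a lower lens fibre score (−0.81 to −0.23) than every control (−0.11 to 0.06, exact permutation p = 0.00794). Of the 15 measured fibre markers, 14 had a negative change and 5 passed as lower. Their median change was −0.21. Crygs changed by −3.36, the largest fall of all genes, and weighs heavily in a score that is a plain mean. Others moved little, such as Cryaa (−0.06), Mip (−0.12) and Gja3 (−0.10). The score without Crygs was not tested, and the markers were chosen with earlier results of these data known. What the lower fibre score contributes to the changes of genes made in fibre cells was not tested. Dicer1 itself did not pass the test (change 0.13, SE 0.08, limma adjusted p = 0.472), and which exons its probes cover relative to the loxP sites was not tested.

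Of the 9 measured members, 2 were higher in DicerCN lenses, the receptors Epha2 and Epha5, and none was lower. Across all genes 6.54% passed the test, 2.56% higher and 3.97% lower. The member median of the change was 0.010, against −0.0014 for all genes, and the median size of the change was 0.26, against 0.100. At an unadjusted p under 0.05 the members were 5 of 9 (Epha2, Epha5, Ephb4, Efna1 and Efnb2), where 18.6% of all genes reached it. Only Epha2 had all DicerCN arrays on one side of all control arrays, a separation seen in 7.38% of all genes. Because the members were chosen with earlier results of these data known, these shares cannot show an excess over all genes. These signals come from whole lenses, so a change in the number of cells of one type and a change in RNA per cell cannot be told apart.

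**Figure D1:**
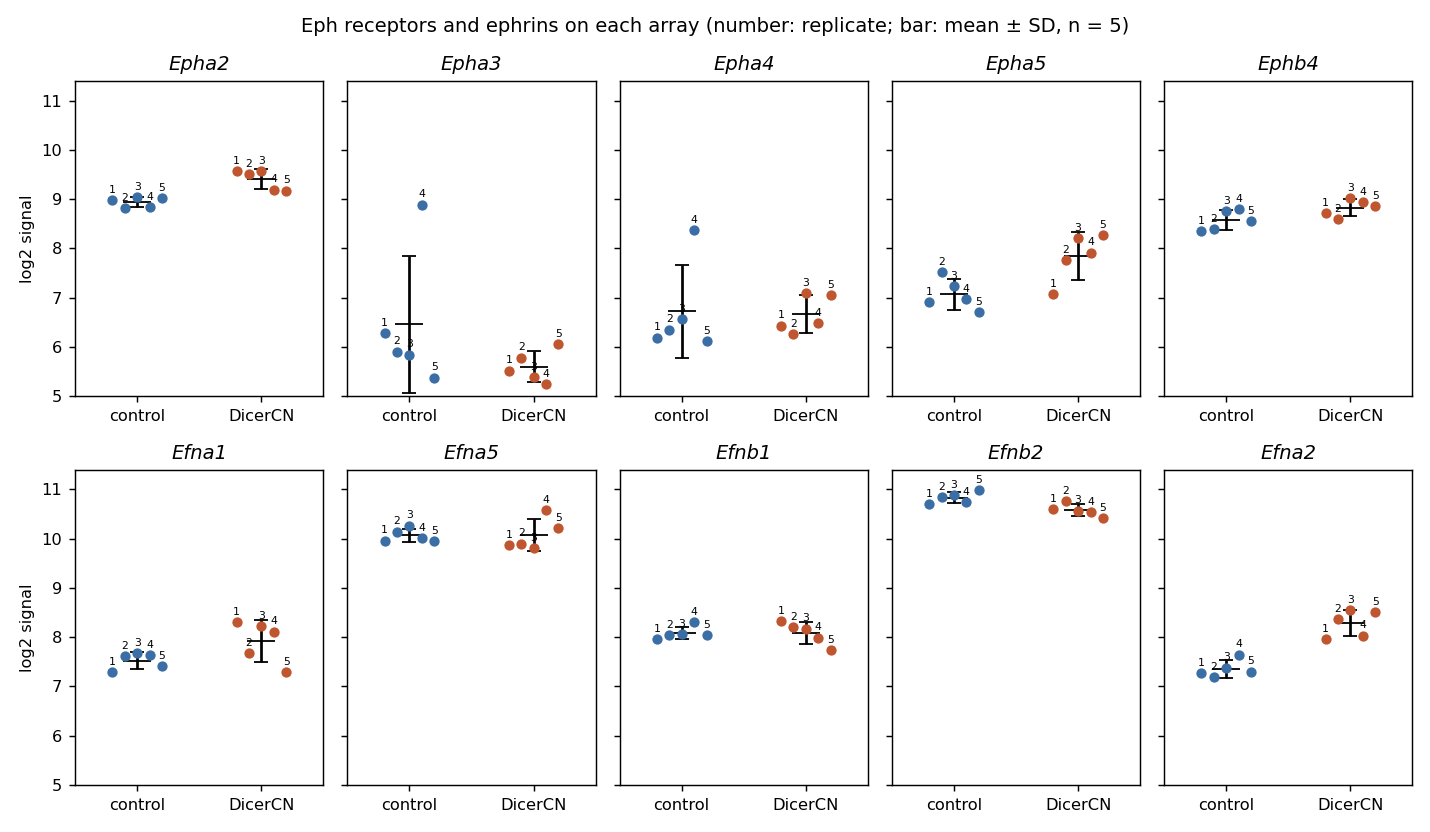
Log2 signal of 9 members, and of Efna2 from the rest of the family, on each array. Numbers are replicates and bars give the mean ± SD (n = 5 per group). The groups part in Epha2 and Efna2, and control replicate 4 stands far above the other controls in Epha3 and Epha4.

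Epha2, the A receptor of lens epithelium and fibre cells, rose 1.37-fold. Its log2 signals were 8.98, 8.83, 9.04, 8.85 and 9.03 across control replicates 1 to 5. In DicerCN replicates 1 to 5 they were 9.56, 9.51, 9.58, 9.20 and 9.18. Every DicerCN array exceeded the highest control, and the DicerCN arrays fell into a higher set (replicates 1 to 3) and a lower pair (replicates 4 and 5). The change was 0.46 (SE 0.10, 95% confidence interval 0.24 to 0.67, limma adjusted p = 0.0161). The exact 2-sided permutation p was 0.00794, the smallest that 5 against 5 arrays can give. Its call held when any 1 array was left out (adjusted p 0.00977 to 0.0475).

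The lower pair of DicerCN arrays in Epha2 also had the 2 highest neural retina scores, 0.83 in replicate 4 and 1.79 in replicate 5, against −0.15, 0.33 and 0.10 in replicates 1 to 3. With that score as a covariate the change of Epha2 was 0.59 (SE 0.09, adjusted p = 0.00322). Macrophage markers moved with the groups: 11 of 12 had a positive change and 2 passed, and their score ranged from −0.34 to 0.37 in control and from 0.19 to 1.01 in DicerCN lenses. Once the macrophage score entered the fit, the change of Epha2 was 0.41 (SE 0.15) and its call ended (adjusted p = 0.247). In that fit 214 genes passed, against 1303 without the score.

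Epha5, an A receptor best known from axon guidance in brain and retina, was 1.72-fold higher. Control replicates 1 to 5 had signals of 6.91, 7.52, 7.24, 6.96 and 6.70. Those of DicerCN replicates 1 to 5 were 7.07, 7.76, 8.21, 7.92 and 8.27. The groups overlapped through DicerCN replicate 1, which lay below control replicates 2 and 3, while the other 4 DicerCN arrays exceeded all controls. The change was 0.78 (SE 0.21, 95% confidence interval 0.32 to 1.24), with a limma adjusted p of 0.0484 and an exact permutation p of 0.0238.

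The call of Epha5 was marginal. It ended when 1 of any of 8 arrays was dropped (control replicates 1, 3, 4 and 5 and DicerCN replicates 2 to 5), at adjusted p from 0.0742 to 0.122, and kept only without control replicate 2 (0.0412) or DicerCN replicate 1 (0.00502). Retina markers were higher in DicerCN lenses in 11 of 11 cases and passed in 0, with scores from −0.26 to 0.39 in control and from −0.15 to 1.79 in DicerCN lenses. The highest Epha5 signal was that of DicerCN replicate 5, which also had the highest retina score. The lowest was that of control replicate 5, which had the lowest score. Between these ends the orders differed, since DicerCN replicate 3 read 8.21 at a score of 0.10 and control replicate 2 read 7.52 at 0.39. The part of retina in this signal was not tested beyond the covariate fit. With the retina score as a covariate the change was 0.50 (SE 0.19) and did not pass (adjusted p = 0.189), against 0.78 without it.

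The promoters of these 2 receptors are shown because they are the members that rose. Both sequences give the 250 bases before the transcript start used in the RefSeq promoter table (build GRCm38.p6), 5′ to 3′ on the gene's strand. Each GC box (GGGCGG or its reverse complement CCGCCC) is in capitals. The Epha2 stretch is chr4:141300971-141301220 on the plus strand and the Epha5 stretch is chr5:84417383-84417632 on the minus strand. The Epha2 stretch ends just before the first base of the RefSeq gene, whereas that of Epha5 lies within the span of its RefSeq gene, whose outer boundary is farther upstream.
Epha2: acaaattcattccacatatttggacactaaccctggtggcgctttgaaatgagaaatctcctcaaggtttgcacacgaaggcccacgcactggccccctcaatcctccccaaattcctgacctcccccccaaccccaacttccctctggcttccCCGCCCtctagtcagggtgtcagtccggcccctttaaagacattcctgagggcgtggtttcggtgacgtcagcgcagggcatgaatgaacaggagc
Epha5: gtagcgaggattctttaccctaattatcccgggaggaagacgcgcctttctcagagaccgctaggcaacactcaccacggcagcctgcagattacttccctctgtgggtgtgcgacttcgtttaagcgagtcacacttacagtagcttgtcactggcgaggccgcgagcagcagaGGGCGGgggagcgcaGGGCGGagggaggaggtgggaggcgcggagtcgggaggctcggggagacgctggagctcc
Epha2 held 1 GC box, 9 CpG dinucleotides and 55.6% G and C. Epha5 held 2 GC boxes, 20 CpG and 62.4% G and C, and neither held TATAAA or CCAAT on either strand. All 10 genes had a promoter in the table, in 11 windows, of which 8 held a GC box, 1 held TATAAA (Efnb2) and 5 held CCAAT. Among all 32851 windows of the same length, 32.7% held a GC box, 12.4% TATAAA and 33.8% CCAAT. The median window of the whole table had 52.4% G and C. These matches describe letters in a window and show no binding.

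Epha3 and Epha4, A receptors found in muscle precursors, mesenchyme and neurons, did not pass, and 1 control array set their spread. The Epha3 signals of control replicates 1 to 5 were 6.28, 5.91, 5.84, 8.89 and 5.38, and those of DicerCN replicates 1 to 5 were 5.52, 5.78, 5.40, 5.25 and 6.06. In Epha4 they were 6.19, 6.35, 6.56, 8.37 and 6.12 in control and 6.43, 6.27, 7.09, 6.49 and 7.05 in DicerCN lenses. Control replicate 4 was the highest array in both genes, above all 9 others, and the remaining arrays of the groups overlapped.

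The change of Epha3 was −0.86 (SE 0.51, 95% confidence interval −1.97 to 0.25, limma adjusted p = 0.421), and without control replicate 4 it was −0.25 (adjusted p = 0.553). That of Epha4 was −0.05 (SE 0.37, interval −0.85 to 0.74, adjusted p = 0.965), and without that array it was 0.36 (adjusted p = 0.299), the opposite sign. The control mean ± SD of Epha3 went from 6.46 ± 1.40 (n = 5) to 5.85 ± 0.37 (n = 4) when the array was left out, and that of Epha4 from 6.72 ± 0.94 to 6.31 ± 0.20. Control replicate 4 was also the array with the high muscle score. With that score as a covariate the changes were −0.19 for Epha3 (adjusted p = 0.681) and 0.39 for Epha4 (adjusted p = 0.310). Among controls it also had the highest periocular mesenchyme score (0.65) and macrophage score (0.37). With the mesenchyme score the changes were −1.23 for Epha3 (adjusted p = 0.176) and −0.37 for Epha4 (0.609). With the macrophage score they were −1.47 (0.419) and −0.76 (0.533). Because only control replicate 4 had a high muscle score, the fit with that score comes close to leaving the array out. It cannot tell muscle from other traits of that array, and the part of muscle in these signals was not tested. With all arrays the interval of Epha3 takes in a 2-fold fall, and that of Epha4 leaves out a 2-fold change either way.

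**Figure D2:**
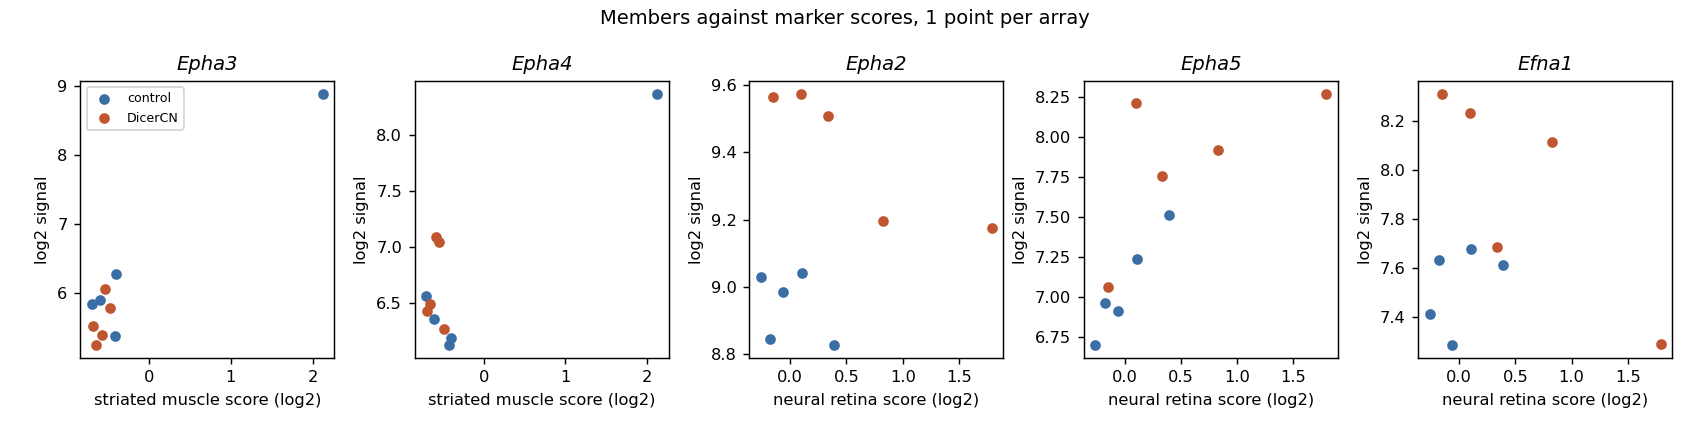
Log2 signal of 5 members against a marker score of the same array, 1 point per array, for control (blue) and DicerCN (orange) lenses. Control replicate 4 lies alone at a muscle score of 2.13 in the panels of Epha3 and Epha4, and DicerCN replicate 5 at a retina score of 1.79 has the highest Epha5 and, next to control replicate 1, the lowest Efna1.

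Ephb4, the B receptor of venous endothelium and of some epithelia, had a change of 0.26 that did not pass. Its signals were 8.35, 8.40, 8.76, 8.80 and 8.55 over control replicates 1 to 5, against 8.72, 8.60, 9.02, 8.95 and 8.86 over DicerCN replicates 1 to 5. Of the DicerCN arrays 3 exceeded every control, and the other 2 lay within the control range. The SE was 0.11, the 95% confidence interval 0.01 to 0.50, the limma adjusted p 0.234 and the exact permutation p 0.0794. Endothelial markers were positive in 12 of 12 cases with 0 passing, and their score ran from −0.23 to 0.23 in control and from −0.36 to 0.76 in DicerCN lenses. With that score as a covariate the change of Ephb4 was 0.20 (adjusted p = 0.416), and with the macrophage score it was 0.067 (adjusted p = 0.902).

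Among the A ephrins, Efna1, a ligand that binds Epha2, did not pass with all arrays. Control signals were 7.29, 7.61, 7.68, 7.63 and 7.41, and DicerCN signals 8.31, 7.68, 8.23, 8.12 and 7.29, each in the order of replicates 1 to 5. DicerCN replicates 1 to 4 lay above all controls, replicate 2 by the least, and replicate 5 lay at the bottom of the control range. The change was 0.40 (SE 0.17, 95% confidence interval 0.02 to 0.78), with a limma adjusted p of 0.232 and an exact permutation p of 0.0873. DicerCN replicate 5 had the highest retina score and the lowest endothelial score of all arrays. Without it the change of Efna1 was 0.56 and passed (adjusted p = 0.0289). It also passed with the retina score as a covariate (0.63, adjusted p = 0.0430). With the macrophage score it was −0.11 (adjusted p = 0.827), and with the endothelial score 0.18 (SE 0.08, adjusted p = 0.266). In replicate order the endothelial score was −0.23, 0.08, 0.23, 0.07 and −0.15 in controls. In DicerCN lenses it was 0.59, −0.09, 0.76, 0.38 and −0.36. The parts of retina and endothelium in this signal were not tested beyond the covariate fits.

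Efna5, the A ephrin best studied in the lens, had nearly equal group means. Signals were 9.96, 10.15, 10.26, 10.01 and 9.96 in controls and 9.87, 9.90, 9.80, 10.59 and 10.22 in DicerCN lenses, in replicate order. DicerCN replicates 1 to 3 lay below every control, replicate 4 above every control and replicate 5 within their range. The DicerCN mean of 10.08 ± 0.33, set beside the control mean of 10.07 ± 0.14 (both SD, n = 5), thus joins arrays from both sides of the controls. The change was 0.010 (SE 0.14, 95% confidence interval −0.29 to 0.31, limma adjusted p = 0.985), an interval that leaves out a 2-fold change either way. The DicerCN arrays highest in Efna5, replicates 4 and 5, were those lowest in Epha2.

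The B ephrins, which signal through a tail inside the cell, did not pass. Efnb1 had signals of 7.96, 8.04, 8.06, 8.31 and 8.05 in controls and of 8.33, 8.20, 8.18, 7.99 and 7.74 in DicerCN lenses. Its change was 0.0042 (SE 0.11, 95% confidence interval −0.23 to 0.24, limma adjusted p = 0.991), and the groups overlapped. Efnb2, the ligand of Ephb4 and a mark of arterial endothelium that is also made by epithelia, had the smallest SE of the members. Control arrays read 10.71, 10.84, 10.88, 10.75 and 10.98, and DicerCN arrays 10.59, 10.75, 10.57, 10.54 and 10.41.

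In Efnb2, 4 of the 5 DicerCN arrays lay below every control, and replicate 2 lay just inside their range. The change was −0.26 (SE 0.08, 95% confidence interval −0.44 to −0.08). It did not pass the test over all genes (limma adjusted p = 0.0918), while the exact permutation p for this gene alone, unadjusted, was 0.0238. The value stayed negative in all 25 alternative settings, between −0.30 and −0.16, and passed in none.

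**Figure D3:**
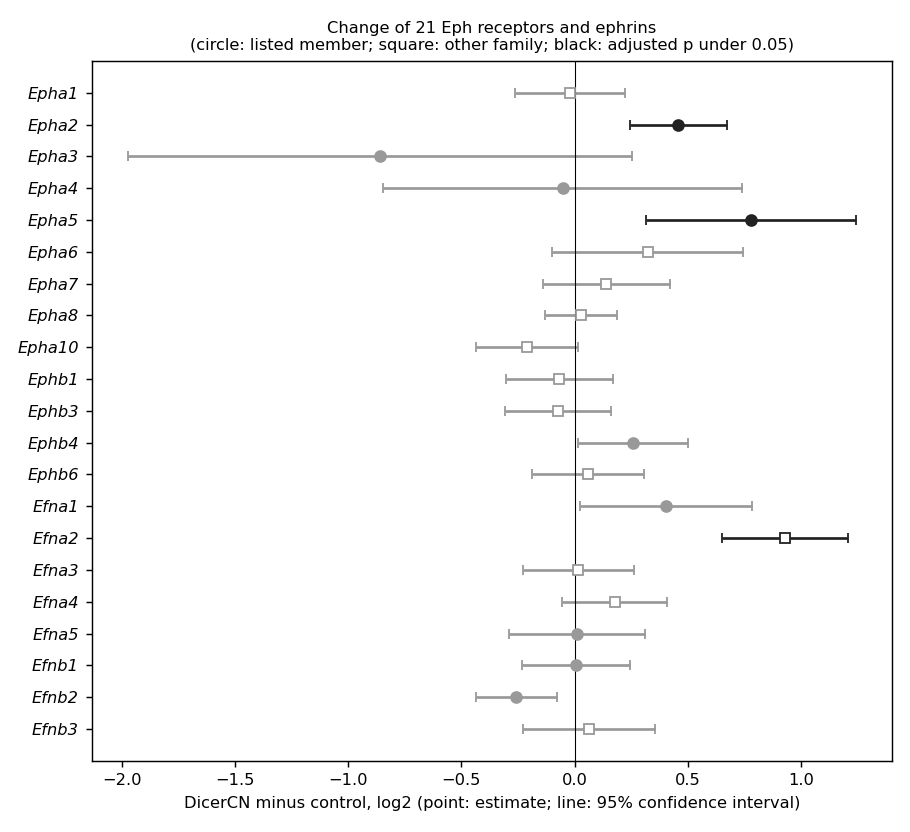
Change (DicerCN minus control, log2) of 21 Eph receptors and ephrins with its 95% confidence interval, circles for the listed members and squares for the rest of the family. Epha2, Epha5 and Efna2, in black, passed the test and lie to the right of 0, and Epha3 has the widest interval.

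The rest of the family comprised 12 genes, the receptors Epha1, Epha6, Epha7, Epha8, Epha10, Ephb1, Ephb3 and Ephb6 and the ephrins Efna2, Efna3, Efna4 and Efnb3. All 12 were measured, and 1 rose and none fell, with a median change of 0.04. Counting both directions, this is near the 6.54% of all genes that passed. As higher alone 2.56% of all genes passed, and as lower 3.97%. Efna2, an A ephrin known from the visual map of the midbrain, rose 1.90-fold, the largest of the 3 changes that passed among the 21 measured family members. Its signals were 7.26, 7.18, 7.38, 7.65 and 7.30 in controls and 7.97, 8.37, 8.55, 8.03 and 8.50 in DicerCN lenses. All DicerCN arrays lay above all controls. The change was 0.93 (SE 0.13), with a limma adjusted p of 0.00115 and an exact permutation p of 0.00794, and it passed in all 25 alternative settings, at an adjusted p of at most 0.0463, reached with the macrophage score.

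The other 11 genes did not pass, with changes from −0.21 in Epha10 to 0.32 in Epha6. Epha10 had 2 probe sets, of which the one used read −0.21 and the other 0.03. Efna3 and Efna4 stood at 0.02 and 0.18 (SE 0.11 each). Epha7, an A receptor of brain and retina, stood at 0.14 (SE 0.13), and Epha8 at 0.03 (SE 0.07). The remaining receptors were Epha1 (−0.02), Ephb1 (−0.07), Ephb3 (−0.07) and Ephb6 (0.06), and the ephrin Efnb3 stood at 0.06.

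**Figure D4:**
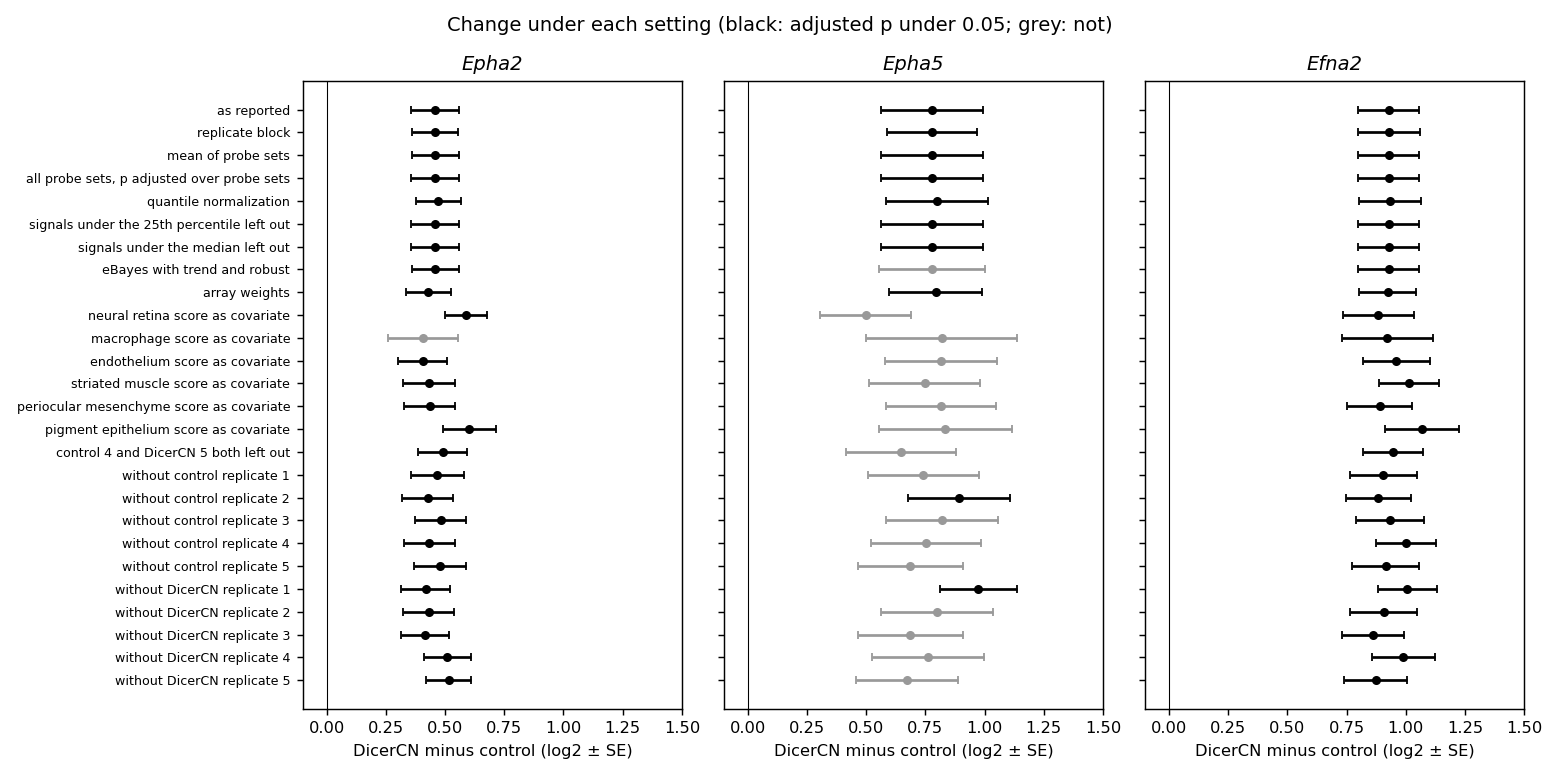
Change of Epha2, Epha5 and Efna2 (log2, ± SE) as reported and under 25 alternative settings, in black where the adjusted p was under 0.05. Epha2 is grey in 1 setting, Epha5 in 16 and Efna2 in 0.

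Of 42 genes whose proteins act with or below Eph receptors and ephrins, 39 were measured, and 3 rose and none fell. Counting both directions, this share is near the 6.54% of all genes that passed. It is above the 2.56% of all genes that passed as higher. These partners were chosen with earlier results of these data known, so the count cannot show an excess over all genes. The median change of the 39 was 0.04 and the median size of change 0.10, the latter as in all genes (0.100). Inppl1, the lipid phosphatase SHIP2 that binds the tail of Epha2, rose by 0.52 (SE 0.11, limma adjusted p = 0.0126) from 9.31 ± 0.12 to 9.83 ± 0.22 (SD, n = 5 each). Rgs3, a regulator of G proteins that binds B ephrins, rose by 0.51 (SE 0.10, adjusted p = 0.00915), and its second probe set by 0.41 (adjusted p = 0.0462). Chn2, a chimaerin that switches off the GTPase Rac, rose by 0.89 (SE 0.20, adjusted p = 0.0195).

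In each of these 3 partners all DicerCN arrays lay above all controls. The groups did not overlap in 5 of the 39 partners, and in 7.38% of all genes. The other cases, which did not pass, were Arhgef7, higher by 0.27 (limma adjusted p = 0.0604), and Pick1, with a change of −0.24 (0.156). Of the 3 that passed, Chn2 varied most, between 8.07 and 9.08 in control and between 9.22 and 9.83 in DicerCN lenses. Chn2 missed the threshold once control replicate 3 (adjusted p = 0.0577) or control replicate 5 (0.0511) was dropped, and when control replicate 4 and DicerCN replicate 5 were dropped together (0.0527). It also missed it with array weights (0.71, adjusted p = 0.0699) and with the endothelial (0.0501) or pigment epithelial (0.0831) score as a covariate. Once the macrophage score entered the fit, all 3 missed the threshold, Inppl1 at 0.38 (adjusted p = 0.291), Rgs3 at 0.44 (0.205) and Chn2 at 0.67 (0.337).

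By likeness over the 10 arrays, the genes nearest to Epha2 were Plekhh1 (Pearson r = 0.974), Ube2h (r = 0.973) and Ncoa3 (r = 0.972). All 3 also rose, by 0.91, 0.43 and 0.32, and the difference between groups is shared by construction in such values. After group means were taken out, their r with Epha2 was 0.940, 0.909 and 0.897. Nearest to Epha5 were Arhgap11a (r = 0.936), Abcg4 (r = 0.935) and Foxp1 (r = 0.927), of which Arhgap11a rose by 0.78 (adjusted p = 0.0448) and the others did not pass. These genes are the extremes of 19938 and are given as a description.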

How the data were processed

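Total RNA (100 ng) from pooled lens pairs was labelled with the Affymetrix whole-transcript sense protocol, per the labels' protocols. GCOS is the only tool in the submitters' processing notes. The unit of the deposited table is read as log2 signal from its range (1.91 to 15.2). Summarisation, normalization and genome build are not given in the sources used here. Any scaling before deposit would hide a change of total RNA, and an array gives no molecule counts. The number of arrays limits precision (median SE of a change 0.0986).

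Of 35557 probe sets, 21789 had 1 gene symbol, 1621 several and 12147 none; only the first were used. Per gene, the probe set with the highest mean was kept. Groups were compared with limma 3.58.1 (R 4.3.3, lmFit and eBayes, 2-sided) and single genes by exact permutation over 252 splits. The fit was tested on simulated data. Alternatives were a replicate block, other probe set rules, quantile normalization, filters, array weights, marker scores as covariates and left-out arrays. No column outside the 10 arrays was present.

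Members, gene lists and markers were chosen with earlier results of these data known. Named were all members and other family genes, partners that passed, and the 3 genes most like each of the 2 members of smallest p.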

Additional observations from a re-analysis of the deposited data

Results flagged for a closer look

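In 4 of 70 groups of 5 arrays examined (genes named above and marker scores), 1 array lay far from the others by Dixon's criterion, which chance meets in about 1 in 20 groups. All 4 were control replicate 4. It read 8.89 in Epha3, where the next control read 6.28, and 8.37 in Epha4, where the next read 6.56. In Efnb1 it read 8.31, next to 8.06. Its striated muscle score was 2.13, against −0.40 in the next control. The covariate fits given above cannot tell muscle cells from other traits of this array, and the part of muscle cells in these readings was not tested.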

How the results depend on the processing

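Epha2 passed in 24 of 25 settings, and its change of 0.41 with the macrophage score did not. Epha5 passed in 9. It missed the threshold with the trend and robust options (0.78), with the retina (0.50), macrophage (0.82), endothelial (0.81), muscle (0.75), mesenchymal (0.82) and pigment epithelial (0.83) scores, and without control replicate 4 and DicerCN replicate 5 together (0.65). Leaving out 1 array at a time gave 0.67 to 0.97 for Epha5 and 0.31 to 0.56 for Efna1, which passed with the retina score (0.63) and without those 2 arrays (0.59). The number of members that passed was therefore 1 with the trend and robust options and with the endothelial, muscle, mesenchymal or pigment score, 0 with the macrophage score, and 1 to 2 with 1 array left out. The pigment epithelial score and all settings for genes other than the members were added after seeing the data. Over all genes, 1303 passed (511 higher, 792 lower). With the macrophage score 214 did (57 and 157), with the pigment score 662 (290 and 372), and with the retina score 508 were lower. With 1 array left out the counts were 784 to 1295 (303 to 503 higher and 481 to 840 lower). With the replicate number as a block, 1100 genes and 2 members passed, and Epha2 had an adjusted p of 0.0283 and Epha5 of 0.0498. The deviations of same-numbered arrays correlated between −0.0880 and 0.190, so the numbers were not taken as pairs. Changes that passed in neither fit switched sign in 6 settings for Epha4, 9 for Efna5, 10 for Efnb1 and 1 for Efna1. Why the calls moved was not tested.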

Other observations

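By RefSeq gene order (GRCm38.p6), Efna1, Efna3 and Efna4 follow each other on chromosome 3 with no other protein-coding gene starting between them, and their changes were 0.40, 0.02 and 0.18. Adam15, which encodes a cell surface protease and comes next after Efna4, stood at 0.28 (SE 0.09, limma adjusted p = 0.104), with no overlap between its groups. Epha3 on chromosome 16 follows Pros1, the gene of the anticoagulant protein S. Pros1 rose by 1.80 (SE 0.18, adjusted p = 0.000153), from 7.11 ± 0.32 to 8.91 ± 0.36 (SD, n = 5 each), while the change of Epha3 was −0.86 and did not pass. Epha8 on chromosome 4 follows C1qa, a complement gene of macrophages, which stood at 0.52 (SE 0.17, adjusted p = 0.0918) where Epha8 stood at 0.03. These neighbours were chosen after their values were seen, and no relation between them was tested.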
